A study of Mus musculus with 4 samples.

Results

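Collagens and laminins are the structural proteins of the extracellular matrix, and 52 of their genes were followed in the cerebral cortex of adult mice exposed to nicotine or saccharin during development. Genes were taken by symbol, those named Col, a number and the letter a, and those that start with Lama, Lamb or Lamc and a number. The symbols come from the authors' deposited table. They matched 105 of the 45101 probe sets and 53 of the 20738 genes named there. The symbol Col4a3bp also matches but stands for a ceramide transfer protein and not a collagen, so it was set apart, which left 41 collagen and 11 laminin genes on 101 probe sets. Its brightest probe set stood at 12.27 and 12.56 in titled nicotine and at 12.32 and 12.50 in titled saccharin. Each gene is represented by its probe set with the highest mean over the arrays.

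RNA came from the cortex of female C57BL/6J mice, an inbred laboratory strain, at 90 days of age. Dams drank a solution of nicotine or of saccharin, a sweetener, from conception, and the offspring were taken off it at postnatal day 21. Each pool held RNA of 4 animals, the labels state 5 pools per group, and 4 Affymetrix arrays were analysed here, 2 titled nicotine and 2 titled saccharin, numbered 1 and 2 in each title. On every array the source name states the exposure that the title does not. Groups are named by title here, titled saccharin is subtracted from titled nicotine throughout, and all signs turn if the source names are right. The meaning of the numbers is not given, and the labels do not say whether separate pools were put on the 2 arrays of a title. The p-values therefore reflect how far these arrays spread, and that spread may be technical.

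Collagens are trimers wound from alpha chains. Some form fibrils, type IV forms the network of basement membranes, and others sit on fibrils or span the cell membrane. Laminins are trimers of an alpha, a beta and a gamma chain that join basement membranes to receptors on cells. In the brain such membranes lie around blood vessels and below the meninges, and little fibrillar collagen lies between the neurons themselves.

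Values are log2 levels per probe set, on which a difference of 1 is a doubling. The median over all probe sets of the mean over arrays, 4.04, was used as the level below which a probe set was read as dim. Of the 52 genes, 20 reached it, 14 collagens and 6 laminins. This is 38.5% of them, against 58.9% of all named genes. Of the 32 dim genes, 15 were flat, which means that their 4 values lay within 0.01 of each other. Flat probe sets made up 49.5% of those of collagens and laminins and 33.9% of the whole table. Results below turn on the genes that reached the level, of which 19 are shown singly, and dim genes are given by class.

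The values of 3 genes stand out below. Lamb1 had the largest difference by title and Col23a1 the largest difference by array number. Col8a1 had the smallest p by title in the limma fit without the array number as a term. Sequences upstream of these 3 genes are given here. Each holds the 250 bases before a RefSeq gene start in mouse assembly GRCm38.p6, written 5′ to 3′ on the strand of the gene, and capitals mark the GC box GGGCGG and the CCAAT box on either strand. The Lamb1 window is chr12:31265043-31265292 on the plus strand, that of Col8a1 is chr16:57754738-57754987 on the minus strand, and that of Col23a1 is chr11:51289670-51289919 on the plus strand.
Lamb1: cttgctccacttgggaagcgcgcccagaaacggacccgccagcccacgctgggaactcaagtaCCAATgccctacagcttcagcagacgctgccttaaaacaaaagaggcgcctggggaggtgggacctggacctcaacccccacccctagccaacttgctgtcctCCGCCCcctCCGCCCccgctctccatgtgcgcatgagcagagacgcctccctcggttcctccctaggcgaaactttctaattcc
Col8a1: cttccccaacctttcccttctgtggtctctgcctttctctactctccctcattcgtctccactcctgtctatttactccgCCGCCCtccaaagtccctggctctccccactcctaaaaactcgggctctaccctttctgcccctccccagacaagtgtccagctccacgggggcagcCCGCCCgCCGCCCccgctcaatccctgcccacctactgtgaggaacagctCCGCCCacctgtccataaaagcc
Col23a1: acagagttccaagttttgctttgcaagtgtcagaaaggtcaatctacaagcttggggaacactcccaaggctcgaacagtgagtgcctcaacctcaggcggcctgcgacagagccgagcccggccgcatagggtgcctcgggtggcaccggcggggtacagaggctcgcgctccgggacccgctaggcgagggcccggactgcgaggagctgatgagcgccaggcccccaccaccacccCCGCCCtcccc
The Lamb1 window holds 2 GC boxes and 1 CCAAT box, that of Col8a1 holds 4 GC boxes, and that of Col23a1 holds 1 GC box. None of the 3 holds TATAAA.

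Upstream windows were found for 38 of the collagen and laminin genes. Among the 15 genes that reached the median level, a GC box stood in 68.8% of the 16 windows, against 46.2% of the 26 windows of 23 dim genes and 32.7% of the 32851 windows of the whole RefSeq table. CCAAT stood in 37.5%, 30.8% and 33.8% of the windows in the same order. TATAAA stood in 0%, 19.2% and 12.4%. The median share of G and C was 61.4%, 57.6% and 52.4%, so the sets also differ in base composition, which was not held fixed. These are counts of letters and not of bound sites.

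By title, no collagen or laminin probe set passed the test (limma, adjusted over all probe sets, threshold 0.05). Among all probe sets a single one passed, or 0.00222%. Every adjusted p of the members was 1, and 0 of their 101 probe sets had an unadjusted p under 0.05, against 347 of all 45101 probe sets. That fit had no term for the array number. With the number as a term, limma gave an unadjusted p of 0.00047 for Col23a1, 0.0031 for Col6a2 and 0.040 for Col4a2. For the dim Col27a1 it was 0.045, and for a second, dim probe set of Col11a1 0.0026. The smallest adjusted p among these was 0.404, and the share of all probe sets under 0.05 in that fit was not computed. With 2 arrays against 2, the smallest p of an exact two-sided permutation test is 0.333. The authors' deposited table gave an adjusted p under 0.05 to 0 of these probe sets and to 0.031% of all probe sets, and its smallest unadjusted p among them was 0.0557. Its mean levels differ from those here, as for Lama2, at 5.58 against 6.78. It was thus not fitted to the values used here, and the arrays behind it are not stated.

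Direction was read within each array number, since the arrays split by number and it may mark a batch. Among the 20 genes that reached the level, Lamb1, Col25a1, Col23a1, Col1a2, Col6a2, Col8a1 and Col9a3 were lower in titled nicotine within both numbers. These 7 make up 35%, against 27.6% of all genes at that level. Higher within both were Col4a2, Col16a1 and Col5a1, or 15%, against 14.8%. Quantile normalization or centring raised this count from 3 to 6, but the share of all genes after either step was not computed. Centring also put the median difference by title over all probe sets at 0.054. The titled groups did not overlap for 2 genes, Col5a1 and Col8a1, or 10%, against 8.56%. These shares lie near those of all genes. The median difference of the 20 genes was -0.06, and that of all genes at the level was -0.03. In the plot of levels by array, the titled groups overlap or touch in every row shown but those of Col5a1 and Col8a1.

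**Figure D1:**
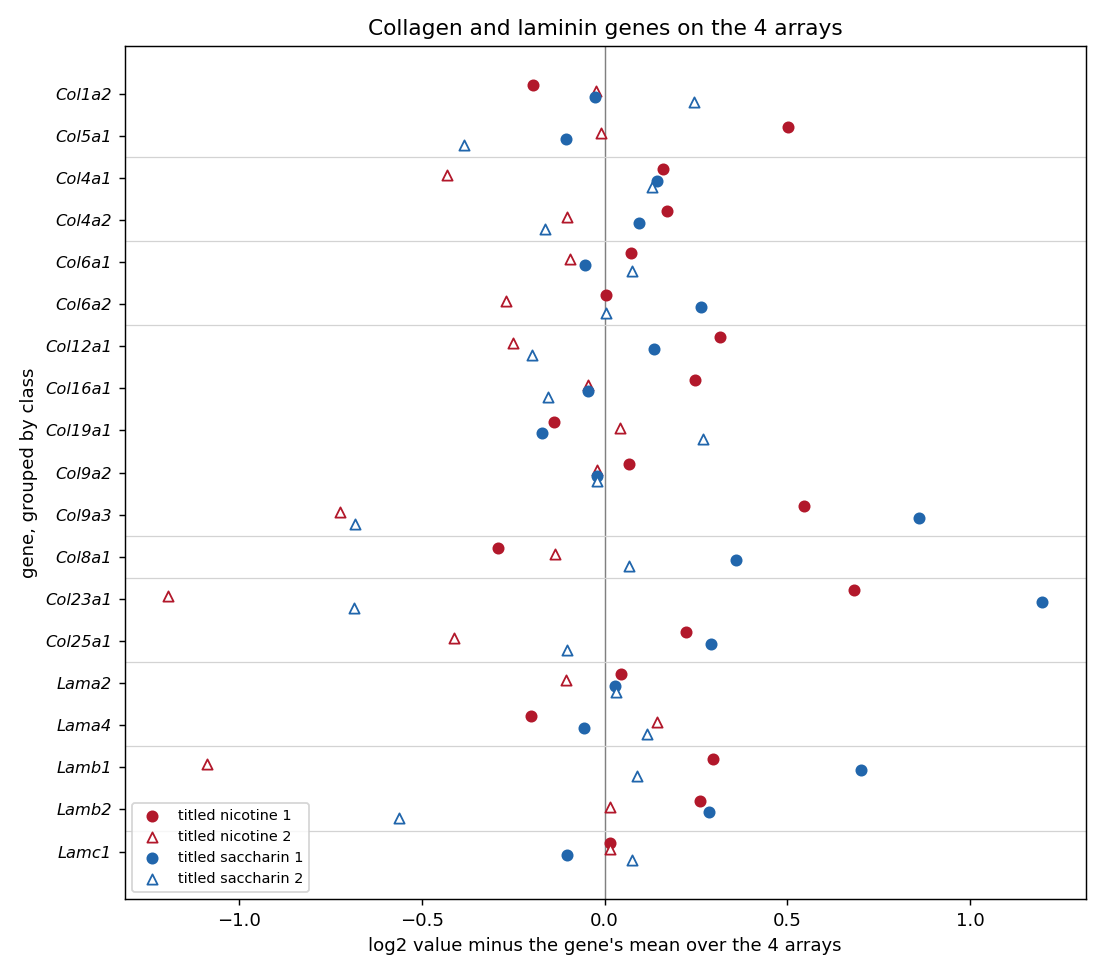
Log2 level of 19 collagen and laminin genes that reached the median level, as its distance from the gene's mean over the 4 arrays, with genes on the y axis grouped by class. Red is titled nicotine, blue is titled saccharin, filled circles are number 1 and open triangles are number 2. Col23a1, Col9a3 and Lamb1 spread widest, and in all 3 both number 1 arrays lie above both number 2 arrays.

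Fibril-forming collagens, which make the load-bearing fibrils of skin, bone and meninges, were mostly dim, and 2 of 11 reached the level. Col1a2, the second chain of type I collagen, stood at 6.89 and 7.07 in titled nicotine and at 7.06 and 7.33 in titled saccharin. The groups overlapped narrowly, with a difference of -0.22 (SE 0.149, n = 2 per group, limma adjusted p = 1). The number 1 arrays differed by -0.17 and the number 2 arrays by -0.27. Col1a1, its partner chain in type I collagen, was flat at 2.98. Col5a1, a chain of the type V collagen that starts fibrils, stood at 5.97 and 5.45 in titled nicotine and at 5.36 and 5.08 in titled saccharin. Both titled nicotine arrays were above both titled saccharin arrays, and the difference was 0.49 (SE 0.270, adjusted p = 1). It was 0.23 without titled nicotine 1. A second, dim probe set of Col5a1 differed by -0.24, and the mean of its probe sets by 0.084. The authors' deposited table gave a log2 fold change of -0.29 for Col5a1, and which group was subtracted there is not stated.

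The 9 dim fibril-forming genes had means between 2.10 and 3.76, and 2 of them were flat. Col3a1, the type III chain of vessel walls and meninges, read 2.66 and 4.50 in titled nicotine and 3.97 and 3.94 in titled saccharin. Its spread lay between the 2 arrays of titled nicotine, with a difference of -1.31 within number 1 and 0.56 within number 2. Col11a1 read 3.49 and 3.40 against 4.34 and 3.49, high on a single array.

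Type IV collagens, the basement membrane network, were represented by Col4a1 and Col4a2, the pair of chains found in nearly every basement membrane, while 4 of 6 were dim. Col4a1 stood at 8.98 and 8.39 in titled nicotine and at 8.97 and 8.95 in titled saccharin. A single array, titled nicotine 2, was low, and the difference was -0.27 (SE 0.275, adjusted p = 1). It was 0.014 within number 1 and -0.56 within number 2. A second probe set of Col4a1 read 5.94 and 6.85 against 5.89 and 6.45, a difference of 0.22, so the 2 probe sets of this gene had opposite signs. Col4a2 stood at 7.85 and 7.58 against 7.77 and 7.52, and its difference of 0.069 (SE 0.175) was smaller than the distance between arrays of 1 title. Col4a5, with a mean of 4.04, lay just under the threshold of the dim genes, and Col23a1, with a mean of 4.15, was the first above it.

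Col4a1 and Col4a2 lie head to head and share their promoter. Their RefSeq starts in GRCm38.p6 overlap by 22 bases, at chr8:11312805-11312826. By their brightest probe sets the pair parted on titled nicotine 2, where Col4a1 stood low and Col4a2 did not stand below its level on titled saccharin 2. The second probe set of Col4a1 was instead highest on titled nicotine 2, at 6.85. In all, 8 pairs of collagen or laminin genes are next to each other among protein-coding genes, among them Col4a1 with Col4a2 and Col6a2 with Col6a1, whose genes all reached the level.

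Type VI collagen forms beaded filaments close to basement membranes, and Col6a1 and Col6a2 were its members at the level, with 3 of 5 dim. Col6a1 stood at 7.01 and 6.85 in titled nicotine and at 6.89 and 7.02 in titled saccharin. The groups overlapped fully, with a difference of -0.022 (SE 0.097, adjusted p = 1) that turned to 0.020 after quantile normalization and to 0.032 after centring. Col6a2 stood at 6.11 and 5.84 against 6.38 and 6.11. Its difference was -0.27 (SE 0.176, adjusted p = 1), near the same within number 1, at -0.26, and within number 2, at -0.27. The arrays titled nicotine 1 and titled saccharin 2 gave Col6a2 the same value within 0.001, so the groups touched.

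Ties between arrays occurred in several genes. For 5 of the 20 genes at the level, among them Lamc1, Col16a1, Col9a2 and Col6a2, at least 2 arrays had values equal within 0.001. This was so for a smaller share, 9.19%, of all genes at the level. How the deposited values came to be equal is not given in the sources used here.

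Fibril-associated collagens, which sit on or link fibrils, had 5 of 9 genes at the level. Col16a1 stood at 7.24 and 6.95 in titled nicotine and at 6.95 and 6.84 in titled saccharin, with a difference of 0.20 (SE 0.145, adjusted p = 1). The lower titled nicotine array equalled the higher titled saccharin array. Col19a1, which in mouse cortex is known from interneurons, stood at 9.11 and 9.30 against 9.08 and 9.52, a difference of -0.096 (SE 0.222). A second probe set of Col19a1 read 8.60 and 8.17 against 8.75 and 8.74, a difference of -0.36. Here the groups did not overlap, whereas at the brightest probe set they did.

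Col12a1, a collagen that decorates type I fibrils, stood at 6.27 and 5.71 against 6.09 and 5.76, a difference of 0.065. Col9a2 stood at 4.93 and 4.84 against 4.84 and 4.84, so that a single array gave its difference of 0.044. Col9a3, another chain of the cartilage collagen type IX, stood at 6.09 and 4.82 in titled nicotine and at 6.40 and 4.86 in titled saccharin. These values part by array number and not by title, with a difference by title of -0.18 (SE 0.928, adjusted p = 1). The next probe set of Col9a3 was flat at 4.27.

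Among the network and anchoring collagens of types VII, VIII and X, Col8a1 alone reached the level. This chain of type VIII collagen, known from the vessel wall and the cornea, stood at 5.88 and 6.04 in titled nicotine and at 6.53 and 6.24 in titled saccharin. Both titled nicotine arrays were below both titled saccharin arrays. The difference was -0.43 (SE 0.154, n = 2 per group), with an unadjusted limma p of 0.0925 and an adjusted p of 1. This unadjusted p was the smallest among the members in the fit without the array number as a term. The difference was -0.65 within number 1 and -0.20 within number 2, and the mean of all Col8a1 probe sets differed by -0.033. A second, dim probe set of Col8a1 had the opposite sign, at 0.26, with 0 within number 1 and 0.53 within number 2. The authors' deposited table gave a log2 fold change of 0.39 for Col8a1, with an adjusted p of 1. The multiplexins Col15a1 and Col18a1, basement membrane collagens whose tails yield endostatin-like fragments, were both dim and flat.

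Transmembrane collagens span the membrane of the cell that makes them, and Col23a1 and Col25a1 of 4 reached the level. Col25a1, made by neurons and known from amyloid plaques of human brain, stood at 9.98 and 9.34 in titled nicotine and at 10.05 and 9.65 in titled saccharin. Its difference was -0.19 (SE 0.346, adjusted p = 1), and the groups overlapped. Col23a1 stood at 4.84 and 2.96 against 5.35 and 3.47. The difference by title was -0.51 within either number, with an SE of 1.23 because the numbers were so far apart. A second probe set of Col23a1 read 3.92 and 4.50 against 4.41 and 3.72, a difference of 0.14, opposite in sign.

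Laminin alpha chains carry the sites that receptors bind, and Lama2 and Lama4 of 5 reached the level. Lama2, the alpha chain of the laminin around vessels and muscle, stood at 6.82 and 6.67 in titled nicotine and at 6.81 and 6.81 in titled saccharin. Lama4, an alpha chain of endothelial basement membranes, stood at 6.38 and 6.72 against 6.52 and 6.69. Both differed by -0.06 (SE 0.070 and 0.178, adjusted p = 1), and the groups overlapped in both. Lama3, dim, read 3.49 on titled nicotine 1 and between 2.35 and 2.39 on the other arrays. Lama3 and Col3a1 were the 2 dim genes with a difference over 1 within a number.

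Laminin beta chains held the largest difference by title. Lamb1, the beta chain of most embryonic and many adult laminins, stood at 6.39 and 5.01 in titled nicotine and at 6.80 and 6.18 in titled saccharin. It was 1.73-fold higher in titled saccharin, a log2 difference of -0.79 (SE 0.704, n = 2 per group, limma adjusted p = 1). The groups overlapped, and most of the difference lay within number 2, at -1.18, against -0.40 within number 1. With titled nicotine 2 left out it was -0.10. A second probe set of Lamb1 read 6.10 and 5.37 against 6.12 and 5.89, a difference of -0.27, with the same array low. The authors' deposited table, fitted to other values, gave a log2 fold change of 0.0036 for Lamb1.

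Lamb2, the beta chain of vessel and synaptic laminins, stood at 6.48 and 6.23 in titled nicotine and at 6.51 and 5.66 in titled saccharin. Here titled saccharin 2 was the low array, and the difference of 0.28 (SE 0.411, adjusted p = 1) was -0.026 within number 1 and 0.58 within number 2. Of the gamma chains, Lamc1, shared by most laminins, stood at 6.54 and 6.54 against 6.43 and 6.61, a difference of 0.029.

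The other dim genes are given by class, as means over the 4 arrays. Among fibril-forming collagens these were Col2a1, Col5a2, Col5a3, Col11a2, Col24a1 and Col27a1. The dim type IV chains Col4a3, Col4a4, Col4a5 and Col4a6 had means between 2.10 and 4.04, and 3 of them were flat. The type VI chains Col6a3, Col6a4 and Col6a5 lay between 2.10 and 2.83, with 2 flat, and Col6a4 read 3.40 on titled nicotine 2 and between 2.61 and 2.66 elsewhere. The fibril-associated genes Col9a1, Col14a1, Col20a1 and Col22a1 lay between 2.11 and 3.59, with 2 flat. Col7a1, Col8a2 and Col10a1 lay between 2.10 and 2.82, with 2 flat, and the transmembrane genes Col13a1 and Col17a1 between 2.10 and 2.41, with 1 flat. Among laminins, Lama1, Lama3 and Lama5 lay between 2.23 and 2.65, Lamb3 was flat at 2.52, and Lamc3 had a mean of 2.25.

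**Figure D2:**
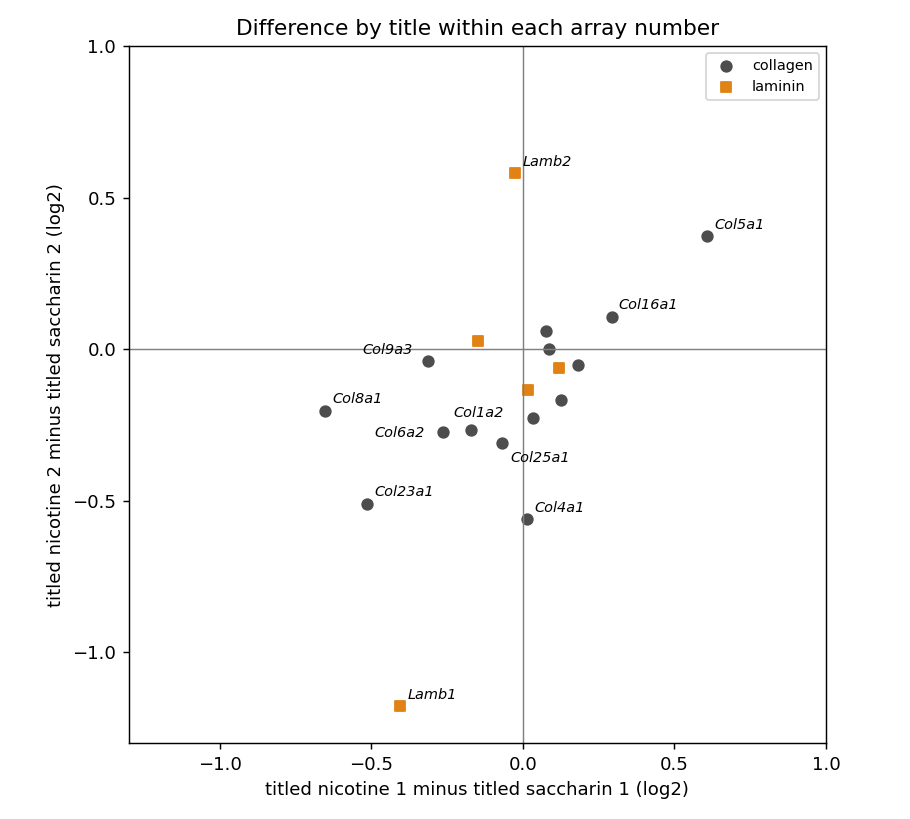
Difference by title of the 19 genes within number 1 (x axis) and within number 2 (y axis), in log2 units, with collagens as circles and laminins as squares. Genes in the lower left were lower in titled nicotine within both numbers and those in the upper right higher, and Lamb1 and Lamb2 lie far from 0 mainly within number 2.

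By array number, with the title as a term, no collagen or laminin gene passed the test, and 0% of all probe sets did. The smallest adjusted p in limma was 0.0836, that of Col23a1. At an unadjusted p under 0.05 stood 5 of the 52 genes, or 9.62%, against 16.8% of all probe sets. These were Col23a1, Col6a2, Col4a2, Col9a3 and Col27a1, each lower in number 2. Of the 20 genes at the level, 11 were lower in number 2 within both titles, or 55%, against 58.3% of all genes at the level. Higher within both were Col19a1, Lama4 and Col1a2, or 15%, against 21.5%. The shares of collagens and laminins by direction thus lay near or below those of all genes. The 16.8% is a share of probe sets, and that of genes was not computed.

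Several genes differed more by number than by title. Col23a1 was higher in number 1 by the widest margin among these genes, a log2 difference of -1.88 within either title. Its number 2 values, 2.96 and 3.47, were themselves below the level, which the gene reached only through its number 1 arrays, so no fold is given. Col9a3 was 2.65-fold higher in number 1, a difference of -1.41. Lamb1 differed by -1.39 in titled nicotine and by -0.61 in titled saccharin. The difference by number was -0.55 for Lamb2, -0.51 for Col25a1 and -0.45 for Col12a1.

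After the arrays were centred on their medians, limma called 8 of the 52 genes by number, or 15.4%, against 19.6% of all probe sets. Called lower in number 2 were Col22a1, Col23a1, Col25a1, Col9a3, Lama3, Lamb1 and Lamb2, and called higher was Col3a1. Of the 8, 5 reached the level, while Col22a1, Lama3 and Col3a1 were dim. As deposited, Col22a1 shifted by -0.023 within titled nicotine and by -1.01 within titled saccharin. In the same order Lama3 shifted by -1.11 and -0.037, and Col3a1 by 1.84 and -0.030. Centring moved the median by number over all probe sets from 0 to -0.16, and the count of genes lower in number 2 within both titles from 11 to 16. The share of all genes lower within both titles after centring was not computed. Centring also changed the variance model, whose prior degrees of freedom were 0.328 on the values as deposited and without limit after centring.

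**Figure D3:**
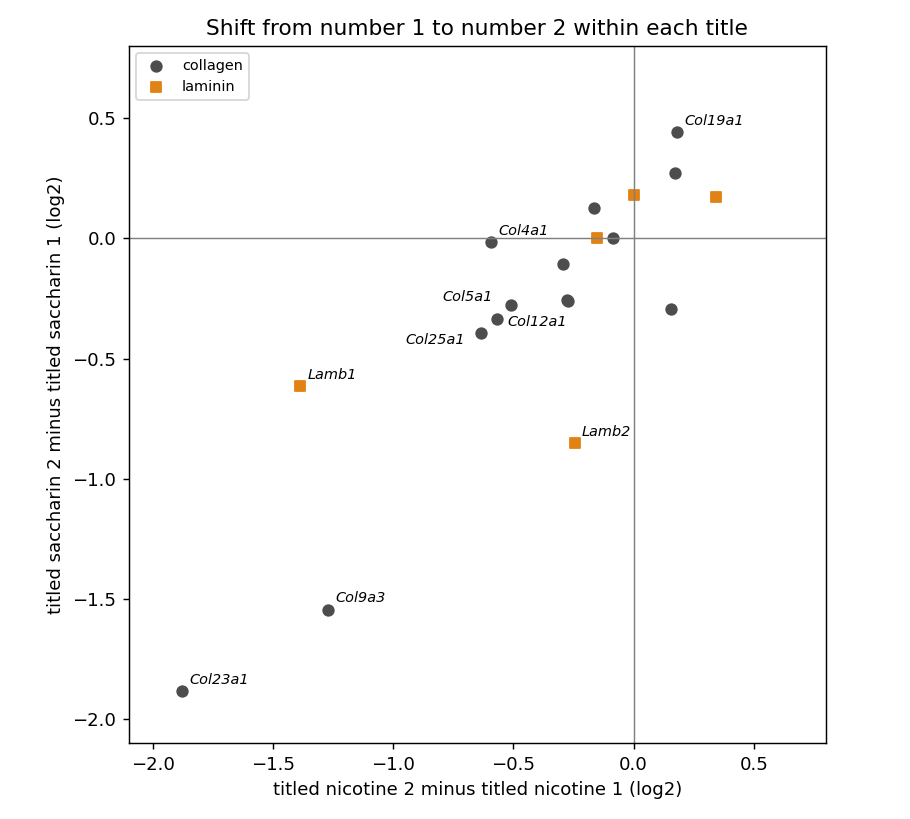
Number 2 minus number 1 for the 19 genes within titled nicotine (x axis) and within titled saccharin (y axis), in log2 units, with collagens as circles and laminins as squares. Col23a1 and Col9a3 lie far to the lower left, low in number 2 under both titles.

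Cells that make these proteins were followed by marker lists, and in bulk RNA fewer cells of a type and less RNA per cell cannot be told apart. Of 12 endothelial markers 11 were measured and all of these reached the level. Their summed linear level was 14836 and 13352 on the number 1 arrays titled nicotine and titled saccharin, and 8320 and 10397 on the number 2 arrays. This sum, in which bright genes weigh most, was lower in number 2. Of the 11 markers, 6 were lower in number 2 within both titles, against 58.3% of all genes at the level. The member Pecam1 read 5.06 and 6.06 in titled nicotine and 5.08 and 5.11 in titled saccharin. Of the basement membrane genes, Col4a2, Lamb1, Lamb2 and the brightest probe set of Col4a1 were lower in number 2 within both titles. For that probe set the shift within titled saccharin was only -0.016. Lama4 and the second probe set of Col4a1 were higher within both. Lamc1 shifted by 0 within titled nicotine and by 0.18 within titled saccharin, and Lama2 by -0.15 and 0.0010. The part of endothelial RNA in these differences was not tested. The 12 meningeal fibroblast markers, 11 at the level, summed to 4272 and 4331 in number 1 and to 5023 and 5260 in number 2. Their sum was higher in number 2, as was Col1a2, while Col5a1 and Col12a1 were lower within both titles. The part of meningeal RNA was not tested. The 10 mural cell markers, 8 at the level, summed to between 6270 and 6713 on the 4 arrays.

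Of 10 choroid plexus markers only Ttr and Sostdc1 reached the level, and Aqp1, Otx2 and Slc4a5 were at the lowest value on every array. The list summed to 4225 and 16022 in titled nicotine and to 3760 and 1785 in titled saccharin. Ttr, the thyroid hormone carrier made by this epithelium, read 12.01 and 13.96 in titled nicotine and 11.84 and 10.75 in titled saccharin. The array titled nicotine 2, lowest in Lamb1 and in the brightest probe set of Col4a1, was highest in Ttr. It was also highest in the second probe set of Col4a1, at 6.85. Sostdc1 read 5.34 and 5.34 in titled nicotine and 5.36 and 4.00 in titled saccharin, so it was not raised on that array. The part of choroid plexus RNA in the collagen and laminin values was not tested. The log2 distance between the 3′ and the 5′ control probe sets of Actb, a common sign of RNA quality, was 2.39 and 1.25 in titled nicotine and 2.38 and 1.73 in titled saccharin. For Gapdh the same distance was 0.092 and -0.14 in titled nicotine and 0.13 and 0.0070 in titled saccharin, near 0 on every array. Both distances were lower in number 2, that of Gapdh by less, and their part in the differences by number was not tested. The neuron markers, all 10 at the level, summed to between 195891 and 207809, so RNA of neurons was present. The brain region was not tested by markers. Median differences by title were 0.038 for neuron, 0.032 for astrocyte, 0.14 for oligodendrocyte and -0.059 for microglia markers, with 0 genes called. Of the 8 oligodendrocyte markers, 6 were higher and 0 lower in titled nicotine within both numbers. In the neuron and the astrocyte list 2 were higher and 2 lower, and in the microglia list 2 and 1. Among all genes at the level, 14.8% were higher and 27.6% lower.

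**Figure D4:**
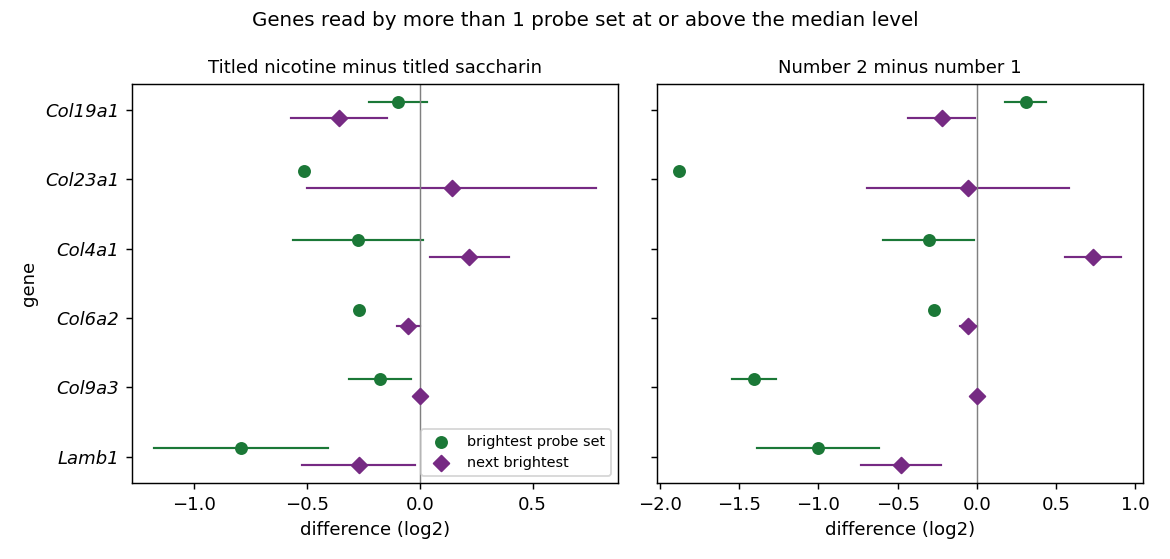
Log2 difference by title (left) and by array number (right) for the 6 genes of which more than 1 probe set reached the median level, with the brightest probe set as a circle and the next brightest as a diamond. Lines join the differences within the 2 numbers (left) or within the 2 titles (right), and the probe sets of Col23a1 and Col4a1 fall on opposite sides of 0 by title.

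More than 1 probe set was present for 33 of the 52 genes, and for 6 of them at least 2 probe sets reached the level. Both probe sets of Lamb1 had the same sign by title and by number. Those of Col19a1 had the same sign by title and opposite signs by number, at 0.31 and -0.22. For Col4a1 the signs were opposite in both comparisons, with -0.30 and 0.74 by number. The second probe set of Col23a1 differed by -0.055 by number, far from the -1.88 of the brightest.

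Enzymes that fold, modify and join collagen chains gave no call by title among the 26 of 27 listed genes that were measured. Of the 15 at the level, 6 were higher and 2 lower in titled nicotine within both numbers, with a median of -0.0069. Among all genes at the level, 14.8% were higher and 27.6% lower within both numbers, and these shares also stand beside the partner lists below. Serpinh1, the collagen chaperone of the endoplasmic reticulum, stood at 8.53 and 8.35 in titled nicotine and at 8.06 and 8.19 in titled saccharin. The groups did not overlap, as was so for 8.56% of all genes at the level, and the difference was 0.31 (SE 0.106, adjusted p = 1). P3h1 and Crtap, which act together in the prolyl 3-hydroxylase complex, differed by 0.23 and 0.097, and the lysyl hydroxylase Plod1 by -0.14. Lox, Loxl2, Loxl4 and Tll1 were at the lowest value on every array.

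Other matrix and basement membrane genes gave no call among 20 measured, 16 of them at the level, 2 higher and 5 lower within both numbers, with a median of -0.045, and 1, Fmod, had an unadjusted p under 0.05. This small proteoglycan binds collagen fibrils and is also on the meningeal list. Fmod stood at 8.82 and 8.82 in titled nicotine and at 9.08 and 9.22 in titled saccharin. The groups did not overlap, as was so for 8.56% of all genes at the level, and the difference was -0.33 (SE 0.066, adjusted p = 1). The proteoglycan Bgn differed by -0.18, Postn by 0.099 and the microfibril gene Fbn1 by -0.09. Nid2 was at the lowest value on every array.

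Receptors of collagen and laminin gave no call among 17 measured of 18 listed, and of the 11 at the level 4 were higher and 1 lower within both numbers, with a median of -0.0038. The integrin chain Itga3, part of a laminin receptor, differed by 0.36 and the collagen receptor kinase Ddr2 by -0.31. The dystroglycan-associated sarcoglycans Sgcb and Sgce differed by 0.095 and 0.13. Of 15 metalloproteinases and inhibitors, 9 at the level, none was called, 0 were higher and 3 lower within both numbers, and the median was -0.013. Timp2, an inhibitor, differed by -0.15, Reck by -0.11, Mmp17 by 0.05 and Mmp24 by 0.091. Every one of these named genes had a limma adjusted p of 1.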

How the data were processed

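The values deposited by the authors are log2 levels, a scale read from the values themselves, which run from 2.10 to 16.6. How background was corrected and arrays were normalized is not given in the sources used here. The fold changes and mean levels of the authors' deposited table are log2 values, its p-value columns hold a raw and an adjusted p, and the statistic and log odds beside them are a score of the authors' fit, all per the file headers. Which group was subtracted there is not stated, and across probe sets the correlation of its fold changes with those by title was -0.87. The submitters' processing notes name limma.

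Arrays were grouped by title. Contrasts were tested in R 4.3.3 with limma 3.58.1 on all 45101 probe sets as deposited, with Benjamini-Hochberg adjustment over all of them and a threshold of 0.05, and the script was tested on simulated data. The fit by title had no other term, and that by number had the title as a term. A gene was counted as higher or lower within both numbers or titles where both differences passed 0.01. Symbols are those of the authors' deposited table, 3213 of them updated through RefSeq, and 6778 probe sets had no usable symbol. Upstream sequences came from RefSeq, assembly GRCm38.p6. Members, gene lists and alternatives were chosen with earlier results of these data known. Every member at or above the median level was named, apart from 1 that counts include and that is not reported here, with up to 4 genes of each partner list and up to 3 of each marker list by smallest p. Other genes were named after their values were seen. Alternatives were quantile normalization, centring on the median, a filter at the median level, limma's trend and robust options, the number as a block, averaging the probe sets of each gene, the number without the title as a term, the authors' table and leaving out each array. Array medians lay between 3.88 and 4.09, and the number of arrays limits the precision.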

Additional observations from a re-analysis of the deposited data

How the results depend on the processing

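By title, 0 collagen, laminin and partner genes were called under quantile normalization, centring, the filter, the trend and robust model, the mean of probe sets, the replicate block and each array left out, and 0 collagen and laminin genes in the authors' deposited table. The replicate block called 0 probe sets in the whole table. Same-numbered arrays deviated together (correlation 0.857 across genes at the median level), a hint from the data, since nothing says what a number shares. By number, centring gave 8 calls and a median difference of -0.16, and the filter gave -0.23 because it keeps brighter genes only. Over all probe sets tested these medians were -0.16 and -0.11. Leaving out an array gave 0 to 3 calls by number, 1 without titled nicotine 2 (Lama5), 3 without titled saccharin 1 (Col4a5, Col7a1, Col9a2) and 1 without titled saccharin 2 (Col2a1), in fits with no title term. The whole table then held 989 and 2621 calls with nicotine 1 or 2 left out, and 1098 and 3177 with saccharin 1 or 2 left out. In the whole table, calls by title numbered 379 without titled nicotine 1 and 277 without titled saccharin 1, and calls by number 8847 after centring, 49 with trend and robust and 1102 without the title term, against 1 and 0 as reported. Genes higher in both numbers by title went from 3 to 6 under quantile normalization and under centring, an alternative chosen after seeing the data. The matching share of all genes was not computed. Of 282 single gene values, 6 were reversed: Col6a1 at 0.020 by quantile normalization and 0.032 by centring, Col4a1 at 0.22 and Col23a1 at 0.14 by their next probe sets, and Sgce at -0.075 and Abcc9 at 0.067 by the mean of probe sets. The cause was not tested. Without 1 array, 17 of 46 genes, 12 of them collagens or laminins, changed sign at least once, counting only values of at least 0.01 in size (Vtn, at 0.21, went to -0.0034). The ranges were Col12a1 -0.22 to 0.35, Col19a1 -0.32 to 0.12, Col23a1 -1.45 to 0.43, Col25a1 -0.51 to 0.13, Col4a1 -0.57 to 0.022, Col4a2 -0.069 to 0.21, Col6a1 -0.11 to 0.061, Col9a3 -0.95 to 0.60, Lama2 -0.14 to 0.016, Lama4 -0.23 to 0.11, Lamb2 -0.15 to 0.70, Lamc1 -0.061 to 0.12, Mmp17 -0.014 to 0.11, Mmp24 -0.084 to 0.26, Pecam1 -0.038 to 0.97, Reck -0.31 to 0.097 and Sostdc1 -0.019 to 1.34. Of those that kept their sign, Col5a1 ranged from 0.23 to 0.75, Col8a1 from -0.57 to -0.28, Col16a1 from 0.054 to 0.35, Col1a2 from -0.35 to -0.084, Col6a2 from -0.40 to -0.13 and Lamb1 from -1.48 to -0.098. Past the threshold without an array were Abcb1a (-0.48 without titled nicotine 1, limma adjusted p = 0.0467) and Sostdc1 (1.34 without titled saccharin 1, adjusted p = 0.0454). With 2 arrays per title, a title left with 1 array is assumed to vary like the other.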
